A study of Mus musculus with 4 samples.

Results

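Acetylation of lysine 27 of histone H3 (H3K27ac) was mapped by ChIP-seq in whole hearts of mdx mice, and the regions described here are those at the promoters of protein-coding genes. A listed region was taken as a promoter region when its centre lay within 1 kb of the annotated transcription start of a protein-coding gene on chromosomes 1 to 19 (mm9, GENCODE vM1). By this rule 936 of the 35547 listed regions were promoter regions, 336 of 12566 in mdx IKKβf/f hearts and 600 of 22981 in mdx HRTΔIKKβ hearts. Both groups were 7 months old and carried the mdx mutation, which removes dystrophin, so neither is a healthy heart. Mice called mdx IKKβf/f carried floxed alleles of IKKβ without cre, and their NF-κB signaling was intact. Littermates called mdx HRTΔIKKβ (Myh6-cre;IKKβΔ in the labels) also carried Myh6-cre, a transgene active in cardiomyocytes, so that fibroblasts, endothelial cells and leukocytes of the same heart kept IKKβ. There was 1 ChIP library per genotype with 57852347 and 62458751 tags, and no value has a replicate error. Differences between genotypes are therefore differences between these libraries, which were not tested, and every interval below is a 95% interval that covers counting error only.

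IKKβ is the kinase that releases NF-κB from its inhibitor, and p65 and p50 are the subunits that then bind DNA. H3K27ac is deposited by the acetyltransferases p300 and CBP and removed by histone deacetylases. It marks active promoters and enhancers, and at an active promoter it usually lies on the nucleosomes that flank the transcription start. Many mammalian promoters, among them those of most housekeeping genes, lie in CpG islands, stretches where the dinucleotide CG is common, while many tissue-restricted genes have starts that are poor in CG. In heart, the promoters of contractile, mitochondrial and ribosomal genes belong to the active class.

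The sequences below let the reader see what kind of DNA the promoter regions cover. They are parts of mm9, read 5′ to 3′ on the strand of the gene, with every CG in capitals. The first 4 lie where a region of mdx IKKβf/f and a region of mdx HRTΔIKKβ overlapped, outside annotated untranslated exons. The last is a start without a region in either genotype, that of Rplp0, a ribosomal protein gene that every cell uses, shown for contrast. The stretch of Fezf1, a forebrain zinc finger factor, was chr6:23197929-23198074 on the minus strand, from 190 to 335 bp downstream of its start. That of Nmur2, a receptor of the peptide neuromedin U, was chr11:55854513-55854728 on the minus strand, the 216 bases before its start. That of Fbxo40, an F-box protein of striated muscle, was chr16:36979223-36979500 on the minus strand, the 278 bases before an internal start. That of 2300003K06Rik was chr11:99698887-99699186 on the minus strand, 194 to 493 bp downstream of its start. The Rplp0 stretch was chr5:116009276-116009475 on the plus strand, the 200 bases before its start.
Fezf1: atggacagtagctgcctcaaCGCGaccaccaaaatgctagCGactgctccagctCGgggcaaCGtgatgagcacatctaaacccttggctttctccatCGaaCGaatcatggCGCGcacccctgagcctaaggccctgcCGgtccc
Nmur2: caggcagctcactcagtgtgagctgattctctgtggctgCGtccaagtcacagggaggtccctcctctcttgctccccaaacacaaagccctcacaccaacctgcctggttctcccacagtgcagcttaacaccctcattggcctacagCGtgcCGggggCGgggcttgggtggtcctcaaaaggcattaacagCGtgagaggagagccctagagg
Fbxo40: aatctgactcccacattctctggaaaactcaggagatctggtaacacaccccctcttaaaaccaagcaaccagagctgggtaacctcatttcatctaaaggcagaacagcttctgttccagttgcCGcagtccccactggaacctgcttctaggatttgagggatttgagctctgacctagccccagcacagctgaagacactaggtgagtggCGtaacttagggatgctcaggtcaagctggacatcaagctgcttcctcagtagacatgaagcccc
2300003K06Rik: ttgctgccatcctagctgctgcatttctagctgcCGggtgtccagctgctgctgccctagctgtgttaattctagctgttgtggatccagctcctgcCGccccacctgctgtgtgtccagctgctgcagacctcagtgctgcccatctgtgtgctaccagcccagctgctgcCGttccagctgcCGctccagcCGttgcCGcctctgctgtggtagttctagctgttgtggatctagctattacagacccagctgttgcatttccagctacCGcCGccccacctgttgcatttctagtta
Rplp0: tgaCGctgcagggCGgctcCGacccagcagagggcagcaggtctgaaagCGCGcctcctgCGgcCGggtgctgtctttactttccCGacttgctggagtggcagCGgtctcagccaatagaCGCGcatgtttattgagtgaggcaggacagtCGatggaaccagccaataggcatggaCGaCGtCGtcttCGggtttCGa
Fezf1 held 10 CG in 146 bases and Rplp0 held 17 in 200, or 0.818 and 0.94 of the number expected from their content of C and G. Nmur2 had 5 CG in 216 bases (0.265), 2300003K06Rik 8 in 300 (0.326) and Fbxo40 2 in 278 (0.114). The sequence of 2300003K06Rik repeats short units around ctgctgc. CG-poor stretches like the latter 3 were the more frequent kind among promoter regions, as counted next.

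Promoter regions lay on less CG-rich DNA than gene starts in general. In the 500 bp around the centre, the median GC content was 54.6% for mdx IKKβf/f and 53.6% for mdx HRTΔIKKβ. It was 57.4% for the 500 bp around all gene 5′ ends and 47.6% for the other autosomal regions of either list. The observed over expected CG ratio had a median of 0.281 and 0.285 in the promoter regions of mdx IKKβf/f and mdx HRTΔIKKβ and of 0.598 at all gene 5′ ends. Region windows are centred up to 1 kb from a start. In the 500 bp at the 5′ ends of genes with a region there, the median ratios were 0.318 and 0.319. The median GC content of those ends was 54.8% and 54.7%. When gene 5′ ends were split into CpG-rich ones (GC of at least 55% and a ratio of at least 0.65) and the rest, 41 of 9116 CpG-rich ends had an mdx IKKβf/f region within 1 kb (0.45%, Wilson interval 0.332 to 0.61%). Of the 12297 other ends, 174 did (1.41%, 1.22 to 1.64%). In mdx HRTΔIKKβ the same shares were 61 of 9116 (0.669%, 0.521 to 0.859%) and 335 of 12297 (2.72%, 2.45 to 3.03%). In both libraries the intervals of the CpG-rich and other ends do not overlap. When gene 5′ ends were ranked by GC into 5 classes of like size, the share with a region was highest in the middle. At 46.8 to 54.2% and at 54.2 to 60.6% GC it was 1.49% and 1.61% for mdx IKKβf/f, and 3.15% and 2.5% for mdx HRTΔIKKβ. It was lowest above 67.0% GC, at 0.323% (0.193 to 0.542%) and 0.809% (0.582 to 1.12%). Whether recovery of GC-rich DNA in the libraries takes part in this was not tested.

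**Figure D1:**
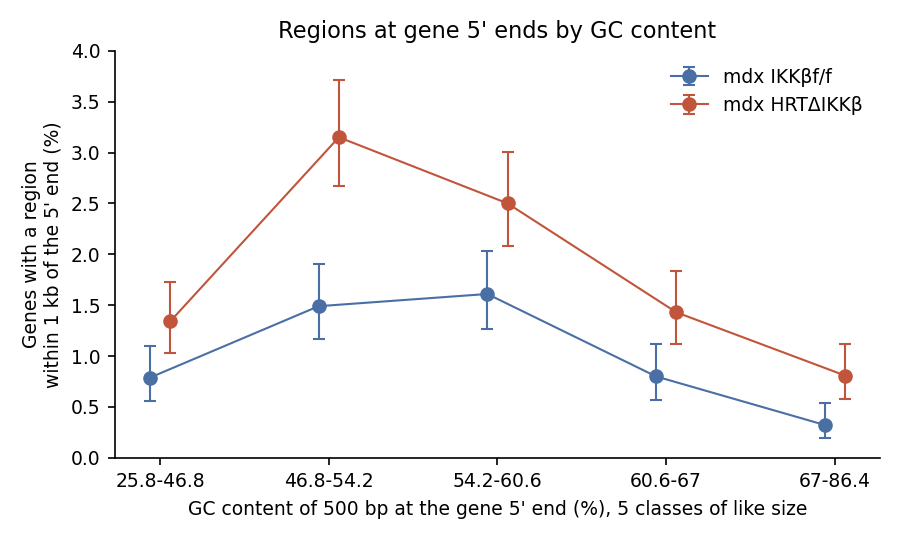
Percent of autosomal protein-coding genes with a listed region whose centre lies within 1 kb of the gene 5′ end (y axis) by GC content of the 500 bp at that end (x axis, percent, 5 classes of like size), with Wilson 95% intervals as bars. Both libraries peak between 46.8 and 60.6% GC and are lowest in the class richest in GC, with 0.323% for mdx IKKβf/f and 0.809% for mdx HRTΔIKKβ.

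Short promoter motifs were counted in the same 500 bp windows on both strands. The GC box (GGGCGG), which Sp1 family factors bind, was present in 99 of 336 promoter regions of mdx IKKβf/f (29.5%) and 159 of 600 of mdx HRTΔIKKβ (26.5%). It was in 53.0% of all gene 5′ ends and in 6.83% and 6.21% of the other autosomal regions of the respective lists. The TATA box (TATAAA) was in 14.9% and 13.3% of promoter regions and 16.7% of gene 5′ ends, and CCAAT in 43.5% and 42.8% against 47.8%. The κB consensus, the site of NF-κB, was in 32 of 336 (9.52%) and 53 of 600 (8.83%), against 11.0% of gene 5′ ends and 6.28% and 6.3% of other regions. The CTCF core was found in 2 (0.595%) and 1 (0.167%) promoter regions, against 0.574% of gene 5′ ends and 0.32% and 0.264% of other regions. Since region windows are not centred on the start, the 500 bp at the 5′ ends of genes with a region there were also counted. There the TATA box was in 45 of 215 (20.9%) and 78 of 396 (19.7%), and in 16.7% of all gene 5′ ends. No interval was computed for these motif shares, and their distance from all gene 5′ ends was not tested. The GC box was in 38.6% and 40.9%, CCAAT in 46.5% and 47.0%, and the κB consensus in 8.37% and 12.6%. All of these are matches of letters and not sites shown to be bound.

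Regions were slightly denser at starts than over the whole autosomal sequence. Within 1 kb of a start there were 5.95 regions per Mb (exact Poisson interval 5.33 to 6.63) in mdx IKKβf/f and 10.6 (9.8 to 11.5) in mdx HRTΔIKKβ. The whole autosomal sequence held 5.24 and 9.58 per Mb, just below these intervals. From 1 to 2 kb the densities were 5.24 and 9.67, at or near the autosomal means, and from 50 to 100 kb they were 5.74 and 10.3. The lowest densities were beyond 100 kb, at 4.82 (4.68 to 4.97) and 8.39 (8.2 to 8.58). Promoter regions made up 2.68% (2.41 to 2.98%) of the autosomal regions of mdx IKKβf/f and 2.62% (2.42 to 2.83%) of those of mdx HRTΔIKKβ, and these intervals overlap.

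**Figure D2:**
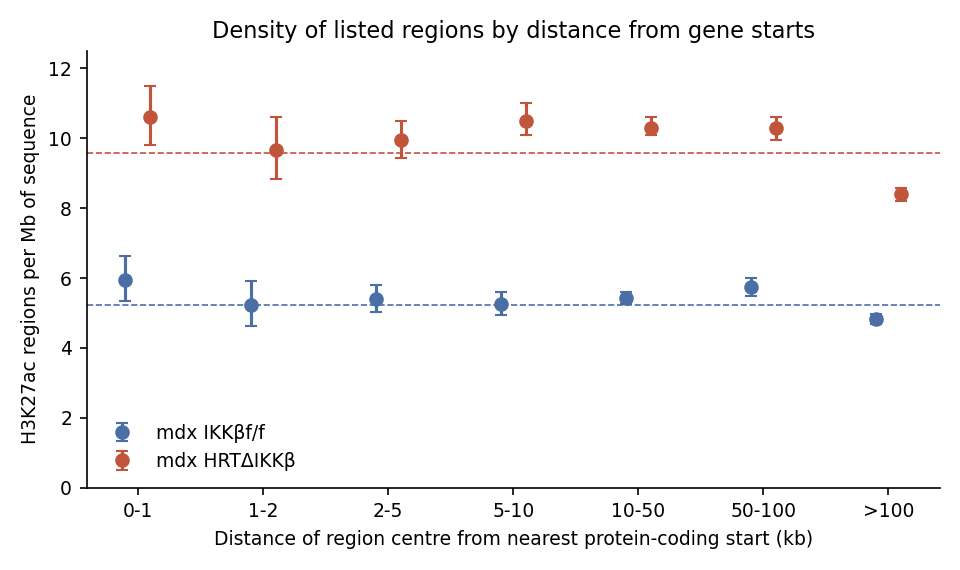
Listed regions per Mb of autosomal sequence (y axis) by distance of the region centre from the nearest protein-coding start (x axis, kb), with exact Poisson 95% intervals as bars and the autosomal mean as a dashed line. The point at 0-1 kb is 5.95 for mdx IKKβf/f and 10.6 for mdx HRTΔIKKβ, against means of 5.24 and 9.58.

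Within the 2 kb window around a start, centres lay more often downstream than upstream. In mdx IKKβf/f 202 of 336 centres were downstream (60.1%, 54.8 to 65.2%) and in mdx HRTΔIKKβ 374 of 600 (62.3%, 58.4 to 66.1%), with medians of 125 and 159 bp past the start. The fullest bins were 0 to 200 bp, with 56 and 95 regions, and 200 to 400 bp, with 51 and 90. By the annotation, 124 centres of mdx IKKβf/f lay in an exon of the nearest gene, 136 in an intron and 76 outside the gene, and in mdx HRTΔIKKβ these were 196, 261 and 143. The gene's own 5′ end was within 1 kb of 212 (63.1%) and 384 (64%) of the regions, and the others lay at other annotated starts. Genes with more annotated starts have more chances to be counted. The mean number of starts was 2.77 and 2.75 for genes with a region and 2.06 for all genes. Regions just inside the 1 kb limit resembled those just outside it: at 900 to 1000 bp there were 31 and 48 regions with median peak scores (tags in the highest 500 bp window) of 31 and 32.5, and at 1000 to 1100 bp 25 and 51 with 31 and 33.

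**Figure D3:**
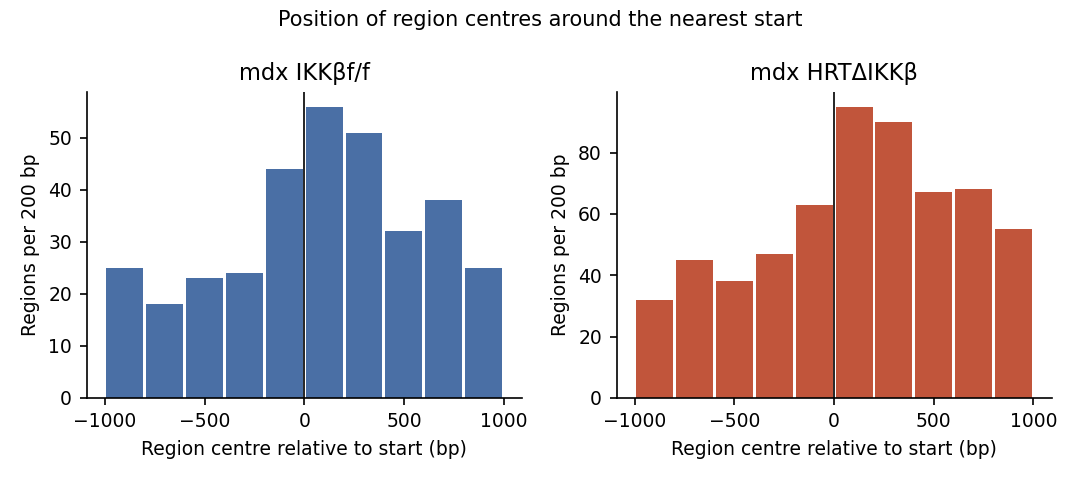
Number of promoter regions (y axis, per 200 bp) by the position of the region centre relative to the nearest protein-coding start (x axis, bp, positive downstream) in mdx IKKβf/f (left) and mdx HRTΔIKKβ (right, with its own y scale). In both, the 2 bins from 0 to 400 bp are the fullest, with 56 and 51 regions on the left and 95 and 90 on the right.

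Most promoter regions were weak by the caller's own measures. The peak score, read as the tags in the highest 500 bp window and not always equal to the tags of the region, had a threshold of 29 for mdx IKKβf/f and 30 for mdx HRTΔIKKβ, and its median was 32 and 33. A score within 5 tags of the threshold was found in 226 of 336 (67.3%) and 386 of 600 (64.3%). Normalized tags, counted over the region and scaled to 10000000 tags per library, ran from 4.15 to 13.7 (median 5.36) and from 4.16 to 15.4 (median 5.28). The fold over the matched input, for which at least 4 was required, had medians of 4.99 and 4.86, with 46 (13.7%) and 114 (19%) regions at 8-fold or more. The input held a median of 4 tags per promoter region in both. The other autosomal regions had median scores of 31 and 32 and median normalized tags of 5.36 and 5.12, within 1 tag of the promoter regions. Of the promoter regions, 269 (80.1%, 75.5 to 84%) and 488 (81.3%, 78 to 84.2%) were exactly 500 bp wide. Among the others this share was 85.9% and 84.1%.

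A region was listed at the promoter of 338 of the 21418 autosomal protein-coding genes in mdx IKKβf/f (1.58%) and of 588 in mdx HRTΔIKKβ (2.75%), which is 1.74 times as many genes. The ratio was 1.79 for promoter regions and 1.83 for all autosomal regions. The ChIP library of mdx HRTΔIKKβ was the deeper, and by the scaling of the fold values it had an input of about 35800000 tags, where that of mdx IKKβf/f had about 39800000. When only mdx HRTΔIKKβ regions with a score of at least 32 were kept, which scales the mdx IKKβf/f threshold by depth, 387 genes were left and the ratio was 1.14. At 8-fold or more over input the genes numbered 46 and 114, a ratio of 2.48. By chromosome the ratio ran from 0.765 on chromosome 19 (17 genes for mdx IKKβf/f and 13 for mdx HRTΔIKKβ) and 0.833 on chromosome 3 (18 and 15) to 3 on chromosome 12 (5 and 15). On 17 of 19 chromosomes more genes were counted in mdx HRTΔIKKβ.

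A promoter region in both genotypes was listed for 31 genes, 0.145% of all genes, 9.17% of the genes of mdx IKKβf/f and 5.27% of those of mdx HRTΔIKKβ. That left 307 and 557 genes listed in 1 genotype, for which the other library had no region above threshold and 4-fold over input. Absence from a list is not absence of acetylation, since most listed regions were within 5 tags of the threshold. Of promoter regions, 15 of 336 (4.46%, 2.72 to 7.23%) and 16 of 600 (2.67%, 1.65 to 4.29%) overlapped a region of the other genotype by at least 1 bp. Over all autosomal regions this was 3.18% and 1.74%, both within these intervals.

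For 15 of the 31 genes the regions of both genotypes overlapped, in 14 pairs of regions, and for the other 16 they lay 600 to 178367 bp apart at the same or at different starts of the gene. The pairs shared 39 to 673 bp, so that the levels compared are those of neighboring or partly shared sequence. Normalized tags per kb of mdx HRTΔIKKβ divided by those of mdx IKKβf/f had a median of 1.02 and was above 1 in 8 of 14 pairs. For 12 pairs the exact binomial interval of the ratio included 1. A pair was formed only where both libraries had a listed region, above threshold and 4-fold over input. Genes with a large difference could therefore fall outside the pairs. The ratios describe the paired regions alone and do not show that levels at other promoters were alike.

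Both pairs whose interval left out 1 had more normalized tags per kb in mdx HRTΔIKKβ. At 2300003K06Rik the peak score was 31 for mdx IKKβf/f and 55 for mdx HRTΔIKKβ, with 5.01 (exact Poisson interval 3.36 to 7.2) and 12.8 (10.2 to 15.9) normalized tags, and the ratio per kb was 1.80 (1.17 to 2.86). At Wbp2nl, a sperm head protein, the score was 30 and 50, with 4.67 (3.08 to 6.79) and 8.01 (5.94 to 10.6) normalized tags and a ratio of 1.72 (1.05 to 2.85). The regions of Wbp2nl shared 39 bp and lay on either side of the start, with centres at -228 and 233 bp, whereas those of 2300003K06Rik shared 374 bp. The input held 3 tags at 2300003K06Rik for mdx IKKβf/f and 10 for mdx HRTΔIKKβ, and 4 and 7 tags at Wbp2nl. Input thus was also higher in mdx HRTΔIKKβ at both. The fold over input was lower there, at 4.58 against 6.65 in mdx IKKβf/f for 2300003K06Rik and 4.09 against 4.65 for Wbp2nl. The part of input in the ratios was not tested. The ratios rest on the position of listed regions of unequal extent, and with 14 pairs compared the intervals are not adjusted for their number.

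The lowest ratio was at Fezf1, with scores of 40 for mdx IKKβf/f and 34 for mdx HRTΔIKKβ, 7.26 and 5.12 normalized tags and a ratio of 0.706 (0.431 to 1.14). Its interval included 1. At Gm10760 and Mctp1, neighbors that share 1 pair of regions, scores were 36 and 30 and the ratio was 0.746 (0.441 to 1.25). At Nmur2 the score was 32 for mdx IKKβf/f and 38 for mdx HRTΔIKKβ, with a ratio of 1.27 (0.807 to 2.04). At Fbxo40 scores of 31 and 36 gave 1.11 (0.666 to 1.87). Slco4c1, an organic anion transporter, had scores of 37 and 33 with 8.99 and 4.96 normalized tags over regions of unequal width, and its ratio per kb was 0.86 (0.533 to 1.37). Klhl1, a Kelch-like protein of brain, had scores of 38 and 32 with 5.7 and 5.76 normalized tags and a ratio of 1.01 (0.612 to 1.67). Pdx1, the homeobox factor of pancreas, had scores of 32 and 34 and a ratio of 0.991 (0.61 to 1.6). Gm10029, whose regions shared 90 bp, had scores of 36 and 33 (ratio 0.989, 0.603 to 1.61), Kctd19 35 and 31 (0.877, 0.527 to 1.44) and Atg2a, a lipid transfer protein of autophagy, 30 and 35 (1.12, 0.662 to 1.93). For each of these pairs the interval of the ratio included 1.

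Genes listed in both without overlap include Srrm4, a splicing regulator of neurons, which had the highest lower score of all 31. Its mdx IKKβf/f region (score 36, 6.05 normalized tags, 8.03-fold over input) lay at -199 bp from the gene start and its mdx HRTΔIKKβ region (score 35, 5.44, 9.72-fold) 420 bp past an internal start, 124576 bp away. Tmprss3, a membrane serine protease of the inner ear, had scores of 33 and 32 at 10.33-fold and 8.87-fold over input, with centres 600 bp apart. Srrm4 and Tmprss3 were the 2 genes listed in both at 8-fold or more. Dnahc9, a dynein of motile cilia, had scores of 34 and 33 at starts 163956 bp apart. Gm11562 had 33 and 37, Sdr16c5, a retinol dehydrogenase, 32 and 36, and Klk1b11, a kallikrein, and Zfp819 31 in both genotypes. Kcnab1, a β subunit of potassium channels, had 32 and 31 with centres 36584 bp apart. Ccr4, a chemokine receptor, had 35 and 30, Dab1, an adaptor of reelin signaling, 30 and 32, and 1700110M21Rik 30 and 31.

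**Figure D4:**
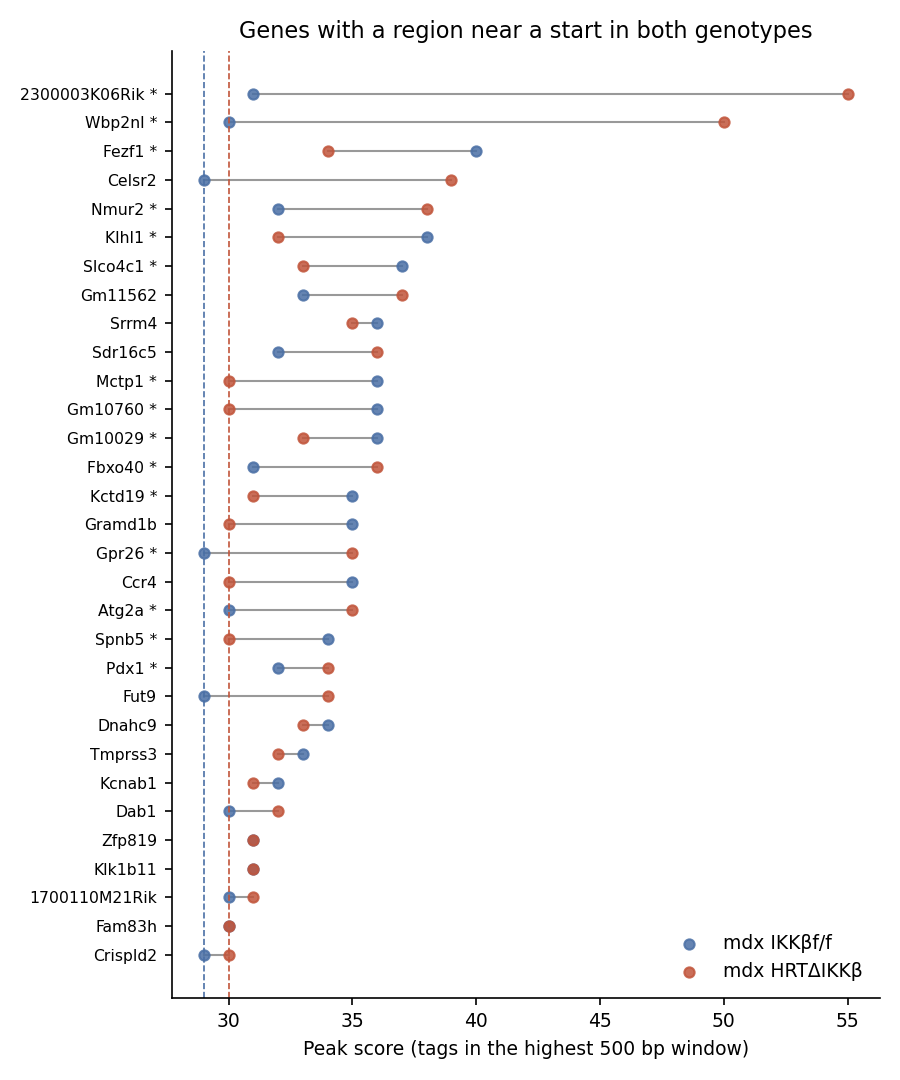
Peak score (x axis, tags in the highest 500 bp window) of the highest promoter region of each of the 31 genes listed in both genotypes, 1 row per gene, with an asterisk where the regions overlap and dashed lines at the thresholds of 29 and 30. Scores of 2300003K06Rik (31 and 55) and Wbp2nl (30 and 50) are farthest apart, and neither genotype is uniformly higher.

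The 15 tallest promoter regions of mdx IKKβf/f had scores from 40 to 48. Ptgdr, the receptor of prostaglandin D2, had the highest score, 48, with 10.0 normalized tags (7.61 to 13) at 6.65-fold over input, in a region at chr14:45478058-45478688 whose centre lay in an exon 677 bp past the start. Ptprd, a receptor tyrosine phosphatase, had 44, Tacr3, the neurokinin B receptor, 43, and Ttc22 and Eya4 (a transcriptional coactivator) 42 each. A score of 41 was shared by Gabra2, a GABA receptor subunit, Cacna1i, a T-type calcium channel, Prlhr, the receptor of prolactin-releasing peptide, Nefl, the light neurofilament chain, Tmem108 and 5330417H12Rik. At 40 were Nup214, a nuclear pore protein, Fezf1 and Qpct, glutaminyl cyclase. A score of 40 was also reached by Nrg3, Spsb1 and Epdr1, which have fewer normalized tags and are outside the 15. Except for Fezf1, none of the 15 genes had a promoter region in mdx HRTΔIKKβ. This is near the share of all 338 genes of mdx IKKβf/f, of which 307 (90.8%) were listed in that genotype alone. Nup214 had the widest region, 1007 bp at chr2:31889177-31890184, with 13.7 normalized tags, the highest of that list, but also 12 input tags, the most of any promoter region there. The next widest were at Myadml2 (899 bp), 1100001G20Rik (814 bp), Fgfbp1 (810 bp), and Rxfp3 and Krtap4-7 (793 bp each).

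In mdx HRTΔIKKβ the scores reached higher. Per the file headers, at most 3 tags per bp were counted in this library and 2 in mdx IKKβf/f, and the part of that limit in scores and counts was not tested. Asphd2 had 61 with 9.29 normalized tags at 4.15-fold over 8 input tags, in a region at chr5:112820662-112821162 in an exon, 321 bp past the start. After 2300003K06Rik with 55 came Elf5, an ETS factor of epithelia, and Krtap4-6, a keratin-associated protein of hair, with 54 each. Ly6d, a surface antigen of lymphocytes and keratinocytes, Lepr, the leptin receptor, Myo15b and Accsl had 51, and Wbp2nl and Tdrd12, a piRNA factor of germ cells, 50. They were followed by Aqp12, a water channel of the pancreas (49), Calcoco2, an autophagy receptor (48), and AI593442, Tpsg1, a mast cell tryptase, and Sh3gl2, endophilin of synapses (47 each). Cbln4 and Sox14 also had 47, with fewer normalized tags, and are outside the 15. Apart from 2300003K06Rik and Wbp2nl, none of the 15 had a promoter region in mdx IKKβf/f. Of all 588 genes of mdx HRTΔIKKβ, 557 (94.7%) were likewise listed in that genotype alone, so this is not particular to the tallest regions. The lowest of these 15 scores, 47, was above all but the highest score of the other list. The widest regions were at Tcl1 (1322 bp, 15.4 normalized tags), Dpp10, an accessory protein of Kv4 channels (1151 bp, 12.2), Dok6 (1130 bp), Dlgap1, a postsynaptic scaffold (1012 bp), and Gm10735 (1005 bp).

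Few genes of the fixed heart lists had a promoter region. None of the 14 gene entries of cardiomyocyte markers, among them Myh6, Tnnt2, Actc1, Ryr2 and Ttn, had a promoter region in either genotype. At the share of all genes, 1.58% and 2.75%, a list of this size would hold 0.221 and 0.384, so that 0 is near the background. Fibroblast and smooth muscle markers also had none (0 of 10 and 0 of 8). In mdx HRTΔIKKβ alone there was 1 of 10 endothelial markers, Cdh5 (VE-cadherin, score 35, 5.6 normalized tags), and 1 of 10 leukocyte markers, Lyz2 (lysozyme of myeloid cells, 31, 4.8). Of 16 markers of other tissues 1 was listed there, Prm2 (a protamine of sperm, 35, 7.36). At the share of all genes these lists would hold 0.275, 0.275 and 0.439, so each count was within 1 gene of background. Thus the regions at promoters did not let the labelled tissue be checked, since the defining markers of cardiomyocytes had none.

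None of 136 ribosomal protein genes had a region in either genotype (2.15 and 3.73 at background). Nor did 20 housekeeping genes (0.316 and 0.549 at background) or 23 genes of fatty acid and glucose metabolism (0.363 and 0.631). Of 91 oxidative phosphorylation genes, none was listed for mdx IKKβf/f and 1 for mdx HRTΔIKKβ, Cox7b2, an isoform of a cytochrome oxidase subunit (score 31, 4.48 normalized tags), where background would give 1.44 and 2.5. Of 27 sarcomere and Z-disc entries, 0 and 2 were listed, against 0.426 and 0.741 at background. The 2 in mdx HRTΔIKKβ were 7.41% of the list (2.06 to 23.4%), an interval that includes the 2.75% of all genes. Among them was Tcap (telethonin, 709 bp past the start, score 34, 7.69 normalized tags). The autosomal members of the dystrophin complex, 20 genes, had none (0.316 and 0.549 at background). When cardiomyocyte markers and the sarcomere, metabolic, oxidative phosphorylation, ribosomal and housekeeping lists were pooled, a union formed after the values had been seen, 0 and 3 of 298 genes had a region, against 4.7 and 8.18 at background.

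Of 36 genes of the NF-κB pathway, none had a promoter region in mdx IKKβf/f and 1 did in mdx HRTΔIKKβ, Nfkb1, which encodes p50 and its precursor p105 (2.78% of the list, near the 2.75% of all genes). Its region, chr3:135271514-135272014, had a score of 33 and 5.12 normalized tags (3.5 to 7.23) and lay in an intron, at -530 bp from an internal start. Of 43 calcium handling genes, 0 and 4 were listed (0% and 9.3%, 3.68 to 21.6%). These were Camk2a and Camk2d, subunits of calmodulin-dependent kinase II, Cacna1h, a T-type channel, and Trpc6, a receptor-operated cation channel. Camk2a had 2 regions, 1 centred at -54 bp from the gene start with a score of 42, 6.4 normalized tags (4.58 to 8.72) and 11.44-fold over input, and 1 in an intron with a score of 32. Camk2d had a score of 32 at an internal start, with 0 input tags. Cacna1h had 34 at an internal start, and Trpc6 had 35, with its centre at -241 bp from the gene start. With the depth-scaled minimum of 32, all 4 stayed listed. The interval of the calcium list lies above 2.75%, but with 4 genes in 1 library it is a description. These genes have a mean of 2.84 annotated starts, more than the 2.06 of all genes, and 2 of the 4 had a region at the gene's own 5′ end.

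Chromatin enzymes and repressors had 0 and 2 of 35 genes listed, the class IIa deacetylases Hdac4 (score 32) and Hdac5 (score 38, at an internal start). Cardiac transcription factors had 0 and 1 of 18, Esrrg, a nuclear receptor of oxidative metabolism (score 33). Extracellular matrix genes had 0 and 1 of 23, Mmp2, gelatinase A, centred at -20 bp from its start (score 33, 5.12 normalized tags). Histone genes had 0 and 2 of 67, Hist1h2aa and Hist1h2ba, testis variants of H2A and H2B that share a start region, so that both were counted from 1 region of 800 bp (score 37, 9.13 normalized tags). Hox genes had 0 and 1 of 40, Hoxa10 (score 36, 0 input tags). At the 2.75% of all genes, the mdx HRTΔIKKβ counts of these 5 lists would be 0.961, 0.494, 0.631, 1.84 and 1.1 in the order given, so each differed from background by little more than 1 gene at most. In 13 of the 16 gene lists the mdx IKKβf/f count was 0, and none of these 13 would hold more than 2.15 genes at the share of all genes.

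For potassium channel genes (symbols that begin with Kcn) the share with a promoter region was above that of all genes in both libraries. In mdx IKKβf/f 8 of 94 had a promoter region (8.51%, 4.38 to 15.9%) and in mdx HRTΔIKKβ 9 of 94 (9.57%, 5.12 to 17.2%), against 1.58% and 2.75% of all genes. Their mean number of annotated starts, 2.05, was like the 2.06 of all genes. At the gene's own 5′ end the shares were 5 of 94 (5.32%) and 3 of 94 (3.19%), against 1.0% and 1.85% of all genes, so in mdx HRTΔIKKβ most of these regions were at other starts. In mdx IKKβf/f they were Kcnq1, the channel of the slow delayed rectifier current, Kcnd2 of the transient outward current, Kcna6, Kcnf1, Kcng1, Kcnj6, Kcnk1 and Kcnab1. Kcnk1 had the highest values (score 36, 8.82 normalized tags, 6.56 to 11.6) and Kcnd2 the lowest score, 29. In mdx HRTΔIKKβ they were Kcnab1, Kcnab2, Kcnb2, Kcnip1, Kcnip4, Kcnj13, Kcnj15, Kcnk10 and Kcnn2, with scores from 30 (Kcnj13) to 38 (Kcnb2). Kcnab1 was the gene listed in both. Scores of these regions were as near to the threshold as those of other promoter regions, with a median of 32 in both libraries. The list is 1 of 16 that were chosen with earlier results of these data known. Its intervals are not adjusted for that number, so the share is a description. The symbol rule also takes in accessory subunits such as Kcnab1.

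Olfactory and vomeronasal receptors were listed for 21 of 1433 genes in mdx IKKβf/f (1.47%) and 31 of 1433 in mdx HRTΔIKKβ (2.16%). These shares were near the 1.58% and 2.75% of all genes. Expression of these receptors in heart was not examined. Their scores ran from 29 to 37 and from 30 to 44, with medians of 32 and 32, and their normalized tags reached 8.47 and 10.2. These genes mostly have 1 annotated start (mean 1.1) and belong to families of similar sequence. How reads from such copies were placed was not tested. Zinc finger genes (symbol Zfp) had 4 of 365 in each genotype (1.1%), with Zfp819 in both, and Zfp111, Zfp385c and Zfp957 in mdx IKKβf/f and Zfp106, Zfp763 and Zfp958 in mdx HRTΔIKKβ.

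**Figure D5:**
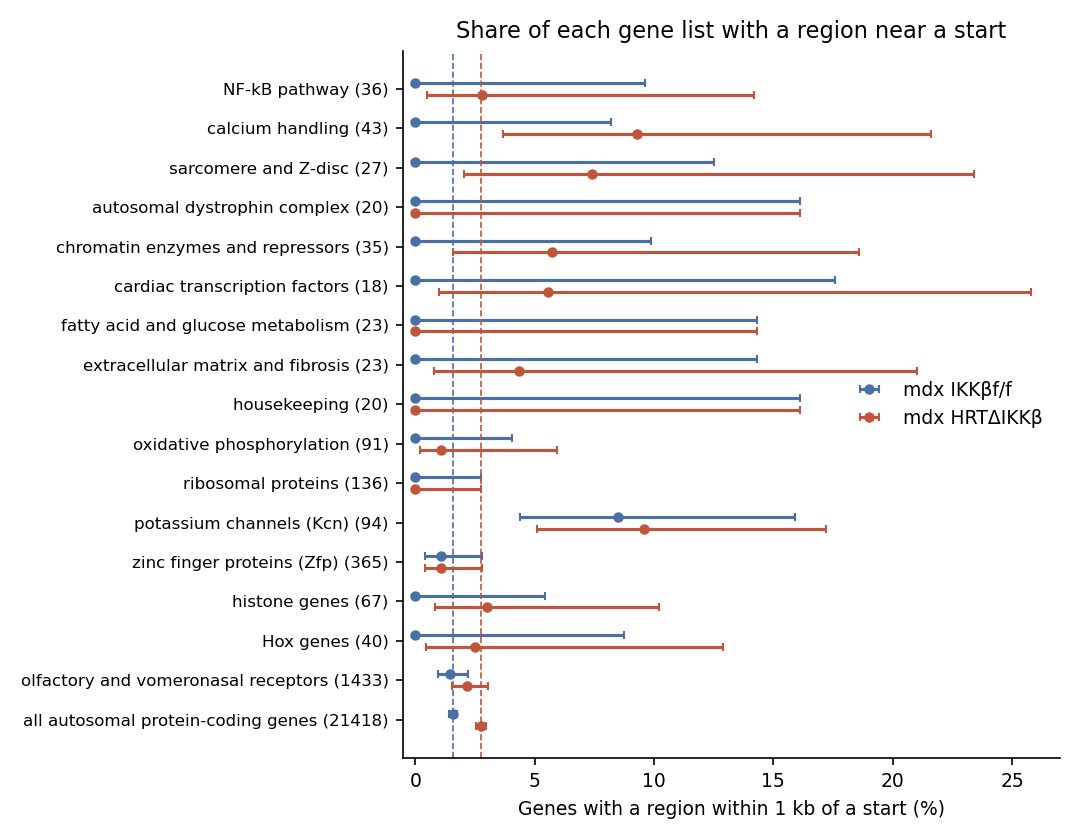
Percent of the genes of each list with a promoter region (x axis), with the number of gene entries in parentheses, Wilson 95% intervals as bars and the share of all genes as dashed lines (1.58% in mdx IKKβf/f, 2.75% in mdx HRTΔIKKβ). Potassium channel genes lie to the right of both lines, ribosomal protein genes are at 0 in both libraries, and olfactory and vomeronasal receptors lie near the lines.

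More than 1 promoter region was listed for 3 genes for mdx IKKβf/f and 17 for mdx HRTΔIKKβ. In mdx IKKβf/f these were Caly (scores 29 and 35), Gm17617 (29 and 30) and Slc30a10, a manganese exporter (33 and 32). In mdx HRTΔIKKβ, Elavl2, an RNA-binding protein of neurons, had 3 regions, at its gene start (score 40, 6.72 normalized tags) and at 2 internal starts (33 and 32). Among the other 16, Pde4dip (myomegalin) had scores of 39 and 35, Dusp26, a phosphatase, 38 and 35, Rap1gap 36 and 33, Capn5, a calpain, 40 and 31, and Sfpi1, the myeloid factor PU.1, 35 and 31. Nrxn3, a presynaptic adhesion protein, had 30 and 34 at starts of separate transcripts. Prkg2, a cGMP-dependent kinase, had 30 and 30. C1qtnf2, Inadl, Mcf2l, Myo15b, Plch2, Slc25a21 and Srgap3 each had a region with a score of 30 or 31 and another with a higher or equal one.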

How the data were processed

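Chromatin from whole hearts of mdx mice was immunoprecipitated for H3K27ac, with 1 ChIP library per genotype. The input libraries are seen only as columns of the lists of regions. Reads were aligned by the authors to mm9 (Bowtie2), and regions were called with HOMER findPeaks in histone mode (versions not given in the sources used here). The lists were deposited with normalized tags, a signal that the authors scaled to 10000000 tags per library, and with input tags. The findPeaks score, the ratio of ChIP to input as a fold, and its p-value were also computed by the authors, and the lists were already filtered at 4-fold and a p of 0.0001. Each input of 0 tags is listed as 0.5. Per the file headers, the ChIP libraries held 57852347 and 62458751 tags, with 14.463 and 15.615 expected per 500 bp window. The annotation the authors used was not used here.

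Regions were placed on the starts of all protein-coding transcripts in GENCODE vM1, whose build has the chromosome lengths of mm9 (44018 starts of 21418 genes). Coordinates are as listed by the authors for regions and counted from 1 for sequences. Shares have Wilson, tags exact Poisson and ratios exact binomial 95% intervals. Genes and regions are not independent replicates, and no test between genotypes was possible. The members and gene lists were chosen with earlier results of these data known. Named were genes listed in both genotypes (of 31, the 20 with the highest lower score, and the tied ones where described), the 15 highest scores and 5 widest regions of each list, genes with 2 or more regions, and listed members of the gene lists. A few genes that this rule names are not reported here. Alternatives were windows of 500 bp and 2 kb, gene 5′ ends only, any overlap with the window, 8-fold over input, and a depth-scaled threshold. The code for placement and intervals was tested on simulated data and passed 6 of 6 checks. Versions were SciPy 1.17.1, pandas 2.3.3, NumPy 2.4.6, matplotlib 3.10.9 and, for the language itself, Python 3.11.15.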

Additional observations from a re-analysis of the deposited data

How the results depend on the processing

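Of 54 values recomputed under 6 alternatives, 35 moved, since most alternatives change how much sequence or how many regions are counted. In each pair below mdx IKKβf/f is given before mdx HRTΔIKKβ. With a window of 500 bp there were 205 and 363 promoter regions, 206 and 357 genes, shares of 1.63% and 1.58%, 8 overlapping regions of mdx HRTΔIKKβ and 14 genes in both. With 2 kb there were 602 and 1091 regions, 601 and 1058 genes, shares of 4.8% and 4.76%, 25 overlapping regions of mdx IKKβf/f and 86 genes in both. With gene 5′ ends only there were 213 and 392 regions (of which 1 and 7 lay beyond 1 kb of any protein-coding transcript start), 215 genes in mdx IKKβf/f, shares of 1.7% and 1.71% and 18 genes in both. Counting any overlap with the window gave shares of 3.2% and 3.22%. At 8-fold over input there were 46 and 114 regions, 46 and 114 genes, a share of 2.4% in mdx HRTΔIKKβ, 0 overlapping regions in either genotype and 2 genes in both. The depth-scaled threshold left 389 regions and 387 genes in mdx HRTΔIKKβ and 19 genes in both.

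More genes were counted in mdx HRTΔIKKβ under all 6 alternatives, with ratios from 1.14 (depth-scaled threshold) to 2.48 (8-fold). No replicate was left out, as each genotype has 1. No paired analysis was possible because each genotype has 1 ChIP library. The lists hold no windows below the threshold.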

Other observations

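Keratin-associated protein genes (symbols that begin with Krtap), structural proteins of hair, were looked at after 2300003K06Rik and Krtap4-6 had been seen among the highest scores, so their count is a description. In mdx IKKβf/f 2 of 46 had a promoter region (4.35%), Krtap1-4 (score 37, 6.22 normalized tags) and Krtap4-7 (33, 9.33). In mdx HRTΔIKKβ 7 of 46 did (15.2%), with scores from 30 to 54. The shares of all genes were 1.58% and 2.75%, which would give 0.726 and 1.26 of 46. These were Krtap4-6 (54), Krtap29-1 (44), Krtap4-1 (33), Krtap17-1 (31), and Krtap5-2, Krtap5-4 and Krtap9-1 (30 each). No gene with a Krtap symbol was listed in both genotypes. The count is by symbol, and 2300003K06Rik, which is outside it, was listed in both. So was Gm11562, which lies between Krtap1-4 and Krtap4-7 on chromosome 11. All 9 regions of Krtap genes had their centres in an exon. These genes have short coding sequences that resemble each other, so that counts at single members are uncertain.

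Promoter regions were counted on the autosomes alone. The X chromosome held 6 listed regions of any position for mdx IKKβf/f and 21 for mdx HRTΔIKKβ.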
